A study of Rattus norvegicus with 6 samples.

Results

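The genes described here take up, activate and oxidise fatty acids, and were followed in the rat aorta after voluntary running. They were chosen by name from a list of 36 genes, and every probe set with a member as its only symbol in the platform annotation was taken. For 32 of the 36, of 4736 genes in all with such a probe set, this gave 53 probe sets. Crat, Acaa1a, Etfb and Mlycd had none, and 7 probe sets that name a member together with another gene were not used. Of those 7, 5 name Cd36.

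All animals were spontaneously hypertensive rats, an inbred strain with high blood pressure. Runners had wheel cages for 5 weeks, and non-runners of the same strain did not run. Each array carried total RNA pooled from 3 aortae, with 3 arrays per group called A, B and C. The labels give no sex, age, colony, wheel distance or division of animals among pools, so the p-values reflect how far these pools differ from one another, and part of that may be technical.

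Fatty acids enter cells with the help of CD36 and are carried in the cytosol by fatty acid binding proteins. Acyl-CoA synthetases join them to coenzyme A, carnitine carries the long chains into mitochondria, and a repeating cycle of oxidation, hydration, oxidation and cleavage shortens them to acetyl-CoA. Peroxisomes run a similar cycle on very long chains. Brown fat, which surrounds much of the rat aorta, burns fatty acids to make heat and is rich in these enzymes, while the nuclear receptor PPAR-alpha switches many of their genes on.

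PPAR-alpha and its partner RXR are known to bind a pair of AGGTCA hexamers separated by 1 base. The start regions are shown because these genes share that regulator in textbook accounts. RefSeq start windows of the assembly GRCr8, from 250 bases before to 50 bases after each gene's start, were found for 31 of the 36 members by symbol. A pair with at most 2 mismatches over the 12 hexamer bases, on either strand, was in 5 of the 31 (16.1%), against 3.77% of 33469 windows of the same length. A single exact AGGTCA on either strand, which may overlap such a pair, was in 4 members (12.9%) and in 16.2% of all windows. The pairs are printed along the gene's strand with the hexamers in capitals. The PPAR-RXR role is background, and a match here describes letters only.
Acadvl, with 1 mismatch: AGGTCAgTGGTCA
Crat: AGGACAcCGGTCA
Echs1, as the reverse complement: AGACCTcTGATCT
Etfa, as the reverse complement: TTACCTtTGCCCT
Slc25a20: AGGTGAaAGGTCG

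The Acadvl window, on the minus strand at chr10:55236656-55236955 of GRCr8, holds the closest match of the members, which begins 17 bases before the start. The whole window is given with the pair and its spacer in capitals. A second exact AGGTCA, farther upstream in the same window, is left in lower case. The Hadha window, plus strand, chr6:31907551-31907850, is shown because Hadha and Hadhb, the genes of both subunits of the trifunctional protein, lie head to head. The Hadhb window, minus strand, chr6:31907451-31907750, shares 200 bases with it, and the Hadhb start lies outside the printed bases. The Hadha window holds no pair within 2 mismatches and no exact AGGTCA. The Hadhb window, not printed, holds no such pair but 1 exact AGGTCA, on its reverse strand, outside the shared bases.
Acadvl: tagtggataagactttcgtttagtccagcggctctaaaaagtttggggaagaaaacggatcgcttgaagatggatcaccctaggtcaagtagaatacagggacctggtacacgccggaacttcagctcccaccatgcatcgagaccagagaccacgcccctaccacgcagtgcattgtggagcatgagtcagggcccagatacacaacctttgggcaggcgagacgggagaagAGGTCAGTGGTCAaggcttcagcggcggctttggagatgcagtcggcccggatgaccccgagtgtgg
Hadha: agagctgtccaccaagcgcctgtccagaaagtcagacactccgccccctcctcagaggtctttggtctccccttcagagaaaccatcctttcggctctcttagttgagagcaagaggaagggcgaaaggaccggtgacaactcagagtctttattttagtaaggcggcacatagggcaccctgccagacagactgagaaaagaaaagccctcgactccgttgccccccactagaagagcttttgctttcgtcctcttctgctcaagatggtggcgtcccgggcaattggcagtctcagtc

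Each value is the deposited intensity of a probe set on 1 array, on a linear scale and with no read depth, so the number of arrays limits the precision. A control level of 40.8, the 95th percentile of 19 yeast and sense-strand control probe sets, marks where a value is no longer clear of background. Non-runner B had a beta-actin 3'/5' ratio, which grows as the 5' end of transcripts is lost, of 2.14 against 1.22 to 1.67 on the other arrays. Results are therefore given with and without that array.

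No member passed the test between runners and non-runners, and for several members 1 array, non-runner B, lay farther from the rest than the groups lay from each other. A filter that dropped the dimmest 40% of probe sets left 27 members, and 5 were too dim to test, namely Acsl6, Hadh, Ehhadh, Acot1 and Ppara. Of the 27, 15 were higher and 12 lower in runners by the brightest probe set, or 55.6% higher, where 46.3% of the 3173 genes tested were higher and 53.7% lower. The median log2 difference was 0.07 for the members and -0.02 for all genes. By limma with Benjamini-Hochberg adjustment over all 5244 probe sets tested, 0 of 42 member probe sets passed an adjusted p of 0.05, and 0% of all. At an unadjusted p under 0.05 there was 1 member lower, Ech1, and 0 higher, where 4.44% of all genes were lower and 2.93% higher. Without non-runner B, 17 of the 27 were lower and 10 higher, with a median of -0.13, against 50.6% lower and a median of -0.0023 over all genes. Limma again called 0 member probe sets, and at an unadjusted p under 0.05 there were 3 members lower (Fabp3, Eci1 and Ech1, 11.1%, against 3.85% of all genes). In RNA of whole aortae, fewer cells of a type and less RNA per cell cannot be told apart.

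**Figure D1:**
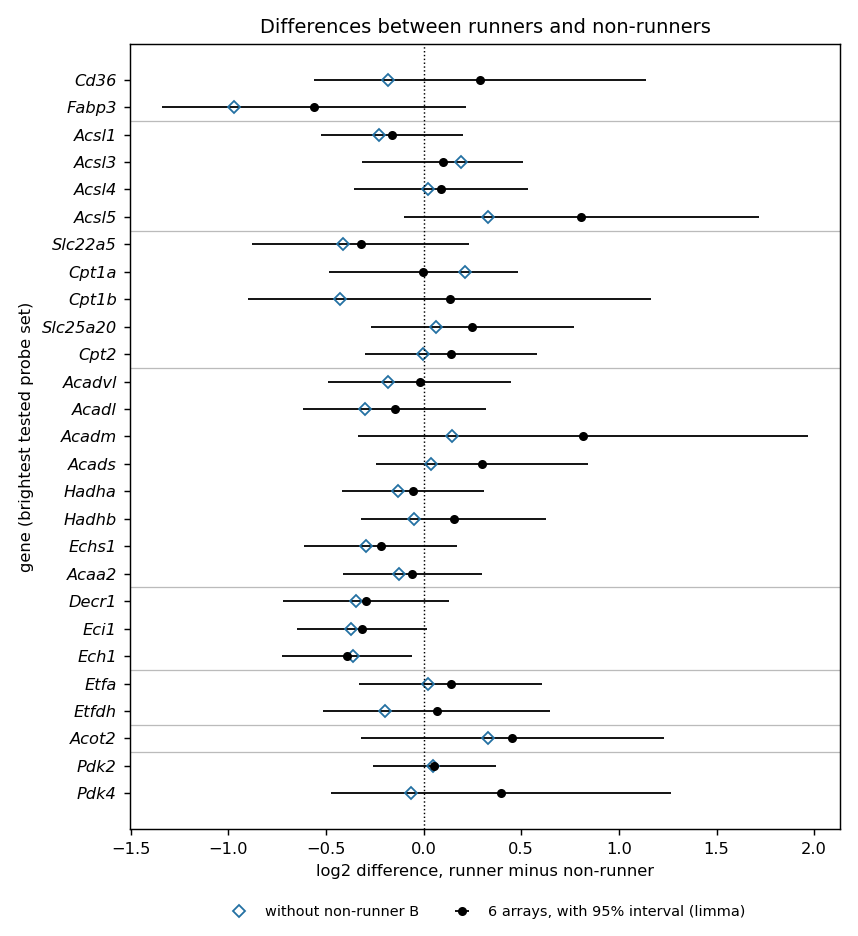
Log2 difference between runners and non-runners for each of the 27 tested members (brightest probe set), with the 95% interval over 6 arrays in black and the value without non-runner B as an open diamond. The interval reaches 0 in every member but Ech1, and the diamonds of Acadm, Cpt1b, Acsl5, Pdk4, Cd36 and Fabp3 lie farthest from their 6-array values.

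Uptake and binding. Cd36, the membrane fatty acid translocase, is known to be defective in some colonies of this strain. It measured 66.8, 24.3 and 76.9 on non-runners A, B and C and 61.7, 70.2 and 58.9 on runners A, B and C. Non-runner B alone lay below the control level, and the other non-runners lay on both sides of the highest runner. The log2 difference was 0.29 ± 0.37 (SE, limma adjusted p = 0.849), and -0.18 without that array. A second Cd36 probe set measured 54.8, 12.8 and 65.1 in non-runners and 54.2, 67.0 and 55.9 in runners. Its log2 difference was 0.62 ± 0.49 (SE, limma adjusted p = 0.759), and -0.04 without non-runner B. Fabp3, the fatty acid binding protein of heart and other oxidative tissues, measured 218, 77.2 and 153 in non-runners and 84.4, 103 and 90.7 in runners. Non-runners A and C were above each runner and non-runner B below them all. Its log2 difference was -0.56 ± 0.34 (SE, limma adjusted p = 0.708), and -0.97 ± 0.19 without non-runner B (limma adjusted p = 0.312), the lowest adjusted p of the members there. Without non-runner A it was -0.23, so the size rests on which non-runner is left out.

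Acyl-CoA synthetases. Acsl5, a synthetase of the outer mitochondrial membrane and endoplasmic reticulum, measured 204, 78.0 and 224 in non-runners and 323, 309 and 200 in runners. Runners A and B were above every non-runner, while runner C was below non-runners A and C. The log2 difference was 0.81 ± 0.39 (SE, limma adjusted p = 0.649), and 0.33 ± 0.23 without non-runner B, while without non-runner C it was 1.08. Its other probe set measured 142.5, 34.1 and 102 in non-runners and 177.5, 180 and 139 in runners (0.99 ± 0.45, limma adjusted p = 0.622), and its difference was 0.42 without non-runner B. Acsl1, the main synthetase of fat and muscle, measured 498, 445 and 565 in non-runners and 410, 504 and 433 in runners, so the groups overlapped. The log2 difference was -0.16 ± 0.16 (SE), and -0.23 without non-runner B. Acsl4, which prefers arachidonic acid, averaged 93.1 ± 7.37 without and 100.1 ± 23.9 with running (intensity, SD, n = 3). Acsl3, of lipid droplets, lay between 27.0 and 39.5 on all arrays, below the control level, and Acsl6 at 1.2 or less.

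Carnitine shuttle. Cpt1b, the muscle and brown fat form of the enzyme that makes acylcarnitine and sets the pace of entry, measured 345, 100.2 and 301 in non-runners and 266, 297 and 179 in runners. The group means were nearly equal, 248 ± 130 without and 247 ± 61.0 with running (SD, n = 3), with non-runner B lowest and runner C next. Without non-runner B both remaining non-runners were above all runners in this probe set, with a log2 difference of -0.43 ± 0.23 (SE, limma adjusted p = 0.71). The other Cpt1b probe set measured 280.5, 183.5 and 219 in non-runners and 192, 240 and 189 in runners. Its groups still overlapped without non-runner B, with a log2 difference of -0.29. Cpt1a, the form named for liver, had the opposite order on that array, at 103, 168 and 106 in non-runners and 113, 118 and 135 in runners. It was the member for which non-runner B stood highest against the mean of non-runners A and C, at 162%. Its log2 difference was -0.0030 ± 0.21 (SE), and 0.21 without non-runner B. Cpt2, which rebuilds the acyl-CoA inside, measured 167 ± 32.6 and 182 ± 22.0, and Slc25a20, the carnitine-acylcarnitine carrier, 74.9 ± 16.4 and 90.1 ± 16.4 (SD, n = 3). Slc22a5, the cell's carnitine importer, measured 59.2 ± 11.2 and 48.1 ± 13.3, with runner B below the control level. All 5 overlapped between groups, with limma adjusted p of 0.752 or more.

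The mitochondrial cycle. The acyl-CoA dehydrogenases catalyse the first oxidation, each for a range of chain lengths. Acadm, for medium chains, measured 606, 142 and 568 in non-runners and 676, 722 and 538 in runners. Non-runner B lay at 24.1% of the mean of non-runners A and C, and without it the difference of 0.82 ± 0.50 (log2, SE, limma adjusted p = 0.713) became 0.14 ± 0.16, while without non-runner A it was 1.19. Acadl, for long chains, measured 617, 457 and 698 in non-runners and 607, 548 and 433 in runners. Here runner C was lowest, and the log2 difference was -0.15 ± 0.20 (SE), or -0.30 without non-runner B and -0.01 without runner C. Acadvl, for very long chains, measured 141 ± 26.7 and 139 ± 21.6, and Acads, for short chains, 78.4 ± 23.4 and 95 ± 8.83 (SD, n = 3). The 4 dehydrogenases had log2 differences of both signs, none of them called.

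Hadha and Hadhb encode both subunits of the trifunctional protein, which carries out the later steps on long chains, and the Hadha start window is the one shown above. Hadha measured 565, 504 and 676 in non-runners and 584, 579 and 517 in runners. Hadhb measured 648, 419 and 671 in non-runners and 689, 678 and 553 in runners. Both were lowest on non-runner B and next lowest on runner C, and both groups overlapped. Their log2 differences were -0.05 ± 0.16 and 0.15 ± 0.21 (SE), or -0.13 and -0.05 without non-runner B. A second Hadha probe set measured 542, 534 and 603 in non-runners and 495, 463 and 453 in runners, with all runners below all non-runners (-0.25 ± 0.14 SE, limma adjusted p = 0.676). Another measured 213, 129 and 206 in non-runners and 196.5, 225 and 220 in runners, so the probe sets of this gene disagreed in sign (0.26 here, or 0.02 without non-runner B). Echs1, the short-chain hydratase, measured 320, 287 and 349 in non-runners and 285, 311 and 231 in runners (-0.22 ± 0.17 SE). The Echs1 difference was -0.30 without non-runner B and -0.10 without runner C. Acaa2, the thiolase that releases acetyl-CoA, measured 636 ± 70.7 and 615 ± 52.5 (SD, n = 3). Hadh, the short-chain hydroxyacyl-CoA dehydrogenase, lay between 3.8 and 17.8 on all arrays and was not tested.

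**Figure D2:**
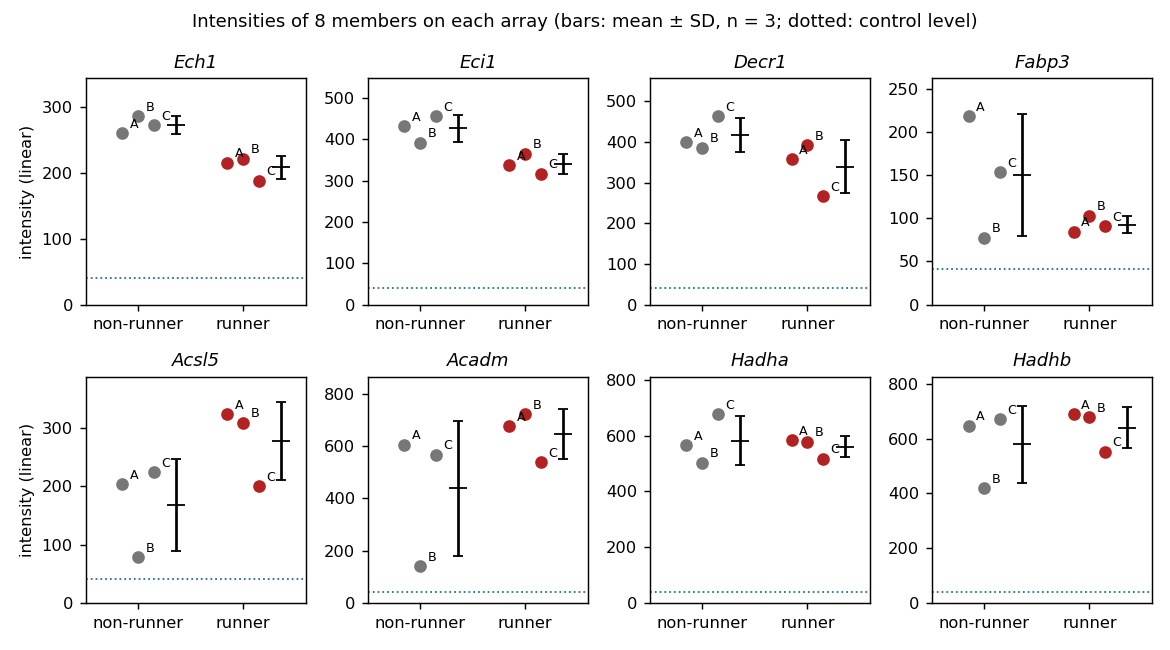
Intensity of the brightest probe set of Ech1, Eci1, Decr1, Fabp3, Acsl5, Acadm, Hadha and Hadhb on each array (letters A to C), with the mean and SD (n = 3) beside each group and the control level of 40.8 dotted. All runners lie below all non-runners for Ech1 and Eci1, and non-runner B stands far below the other arrays for Acadm and Acsl5.

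Enzymes for unsaturated chains. Double bonds need auxiliary enzymes before the cycle can go on, and all 3 of these genes were lower in runners by the brightest probe set, with log2 differences of -0.39 to -0.30. Ech1, a dienoyl-CoA isomerase of mitochondria and peroxisomes, measured 259, 286 and 272 in non-runners and 215, 221 and 188 in runners. All runners lay below all non-runners, non-runner B was the highest array, and the runner mean was 0.763 of the non-runner mean. The log2 difference was -0.39 ± 0.14 (SE, 95% interval -0.73 to -0.06), with an unadjusted limma p of 0.0267 and an adjusted p of 0.581, so it did not pass. Without non-runner B it was -0.36 ± 0.14.

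Eci1, the enoyl-CoA isomerase that moves a double bond, measured 432, 392 and 456 in non-runners and 338, 365 and 317 in runners in its brightest probe set. All runners again lay below all non-runners (-0.32 ± 0.14 SE, limma adjusted p = 0.626), and the difference was -0.37 ± 0.13 without non-runner B. A second probe set of Eci1 measured 248, 169 and 279 in non-runners and 208, 248 and 231 in runners, and its groups overlapped (0.01 ± 0.21 SE, or -0.21 without non-runner B). Decr1, the dienoyl-CoA reductase, measured 399, 385 and 463 in non-runners and 357, 392 and 266 in runners (-0.30 ± 0.18 SE, limma adjusted p = 0.714). The Decr1 difference was -0.34 without non-runner B and -0.14 without runner C. The second probe set of Decr1 had a difference of 0.15 ± 0.27, or -0.17 without non-runner B. Ech1 and Eci1 were the only 2 of the 27 brightest probe sets whose groups did not overlap with runners lower (7.41%, against 8.13% of all genes), and 0 had all runners higher (6.15% of all genes). Over all 42 tested member probe sets the count was 3 (7.14%, against 7.49% of all tested). These shares were near the background.

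Peroxisomal step, electron transfer and regulators. Ehhadh, the bifunctional enzyme of the peroxisome, lay between 5.3 and 19.1 and was not tested, so no member represented that step. Etfa and Etfdh pass electrons from the dehydrogenases to the respiratory chain. Etfa averaged 231 ± 34.1 without and 258 ± 52.7 with running, and Etfdh 172 ± 50.1 and 176 ± 27.6 (SD, n = 3). A second Etfdh probe set measured 111, 12.6 and 85.6 in non-runners and 67.4, 68.9 and 63.6 in runners, with non-runner B at 12.8% of the mean of A and C, the lowest such share of the tested member probe sets. Without that array its log2 difference of 0.33 ± 0.65 became -0.56 ± 0.16 (SE, limma adjusted p = 0.449).

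Pdk4 and Pdk2 are kinases that shut off pyruvate dehydrogenase and so favour fatty acids over glucose. Pdk4 measured 91.0, 31.1 and 85.2 in non-runners and 81.5, 106 and 70.9 in runners, with non-runner B below the control level. Its log2 difference was 0.40 ± 0.38 (SE), or -0.06 ± 0.20 without that array. Pdk2 hardly varied in its brightest probe set, at 203 ± 5.51 without and 210.4 ± 9.41 with running (SD, n = 3), a log2 difference of 0.05 ± 0.14 (SE). Acot2, a mitochondrial acyl-CoA thioesterase, measured 49.2, 26.4 and 25.9 in non-runners and 71.5, 44.4 and 32.4 in runners, with 3 of 6 arrays above the control level (0.45 ± 0.34 SE, log2, or 0.13 without runner A). Acot1, its cytosolic relative, lay at 3.1 or less, and Ppara between 2.8 and 27.1, below the control level on every array. All 11 untested probe sets of members lay below the control level throughout, where the order of values carries little. Among them 3, of Acsl3, Hadh and Acot2, had all runners higher, but the share over all untested probe sets was not counted.

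**Figure D3:**
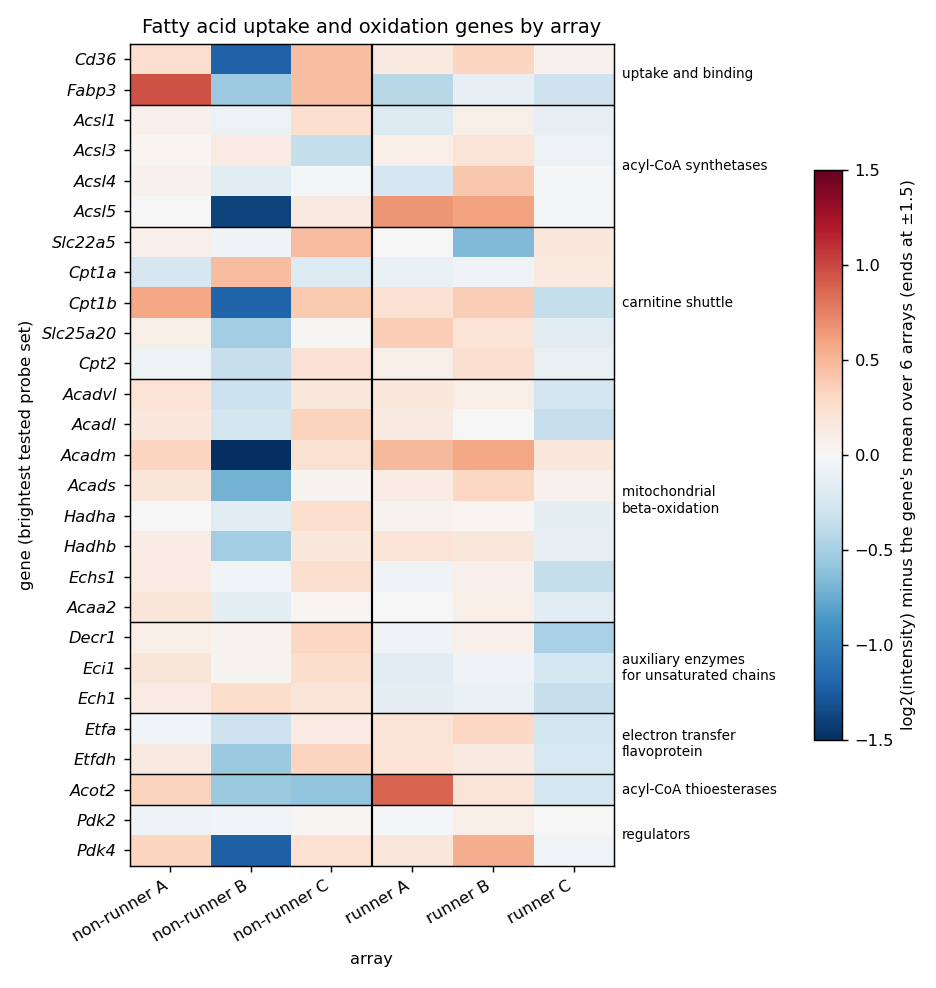
Log2 intensity of each tested member (rows, brightest probe set, ordered by step) on each array (columns), relative to the gene's mean over the 6 arrays. Non-runner B is the lowest array for 14 of the 27 rows and runner C for 6.

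The same arrays were low for many members. Non-runner B was the lowest array for 14 of the 27 (51.9%), against 23.9% of all genes tested. Among the other 5 arrays, runner C was lowest for 18 of the 27 (66.7%), against 15.3% of all genes. The mean log2 level of the 27 genes, each centred on its own mean, was 0.15, -0.39 and 0.16 on non-runners A, B and C and 0.10, 0.15 and -0.16 on runners A, B and C. So a low array stood in each group. By the brightest probe sets, the auxiliary enzymes for unsaturated chains departed from this, with a mean of 0.12 on non-runner B and -0.35 on runner C. The second probe sets of Decr1 and Eci1 were lowest on non-runner B, at 51.0% and 64.0% of the mean of non-runners A and C. Acot2, the 1 thioesterase tested, stood at -0.47 on non-runner B and -0.50 on non-runner C.

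The tested markers of brown fat, other than Fabp3, were lowest on the same 2 arrays. Ucp1, the uncoupling protein of brown fat, measured 1407, 764 and 1582 in non-runners and 1191, 1529 and 881 in runners. Cidea, a lipid droplet protein of brown fat, measured 630, 424 and 619 and then 487, 595 and 354, and Cox8b, a respiratory chain subunit of muscle and brown fat, 335, 169 and 342 and then 366, 362 and 178. The summed intensity of the 7 brown fat genes with a probe set ran from 1496.5 on non-runner B to 2788 in non-runners, and from 1599 on runner C to 2694 in runners. Of the 7, Dio2 and Gk lay below the control level on all arrays. Fabp3 and Slc25a20 are in both lists, and Fabp3 was lower on runner A (84.4) than on runner C (90.7). The part of brown fat in the members' levels was not tested.

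White and general adipocyte markers, 10 of 13 measured, summed to 2547 on non-runner B and to between 3388 and 4081 elsewhere, and were not low on runner C (3679). Plin1 lay below the control level. Beside Fabp4 and Pck1, the smallest p were those of Gpd1 (log2 difference 0.47, or -0.18 without non-runner B) and Lipe (0.16, or -0.07 without it). Of the skeletal and cardiac muscle markers, 25 of 28 measured, 16 lay below the control level on all arrays, and the sum ran from 978 to 1220 in non-runners and from 896 to 1126 in runners. Among those tested, the smallest p were those of Acta1 (-0.40), Cox6a2 (-0.17), Casq2 (0.20, or -0.02 without non-runner B) and Ckm (-0.54), and the groups overlapped in all 4. Smooth muscle markers, 7 of 10 measured and all above the control level on some array, summed to between 12834 and 14792 in non-runners and between 12548 and 13588 in runners. Itga8, an integrin subunit of smooth muscle, had all runners higher, at 311, 218 and 295 and then 396, 411 and 408.5 (0.56 ± 0.18 SE, limma adjusted p = 0.52), whereas Actg2 (-0.18) and Myh11 (-0.13) overlapped. Acta2, smooth muscle actin, measured 4052 ± 987 and 4080 ± 288 (SD, n = 3), far above the control level on every array, as fits the labelled tissue. Endothelial markers, 8 of 11 measured with Vwf, Kdr and Icam2 below the control level, summed to between 554.5 and 681 in non-runners and between 528 and 542.5 in runners. Of the 6 tested, 5 were lower and 1 higher, or 4 and 2 without non-runner B, and limma called 0. At an unadjusted p under 0.05, 3 of the 6 were lower, against 4.44% of all genes. They were Egfl7, a secreted factor of endothelium (119 ± 28.3 and 28.6 ± 12.3, SD, n = 3), Nos3, endothelial nitric oxide synthase (87.9 ± 17.3 and 62.1 ± 10.6), and Flt1, a VEGF receptor (63.6 ± 3.44 and 47.0 ± 9.41). Egfl7 lay below the control level on all runners, and its limma adjusted p was 0.234. Pecam1, a junction protein of endothelium, lay the other way, at 134 ± 58.3 and 171 ± 12.0 (log2 difference 0.45, or 0.12 without non-runner B). Macrophage markers, 6 of 10 measured with Csf1r and Itgam below it, summed to between 809 and 1008.5, then between 850 and 1108.5. Aif1 (0.30), Cd14 (0.20, or 0.05 without non-runner B), Lyz2 (0.14) and Ptprc (-0.09) overlapped between groups. Their part was not tested either.

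**Figure D4:**
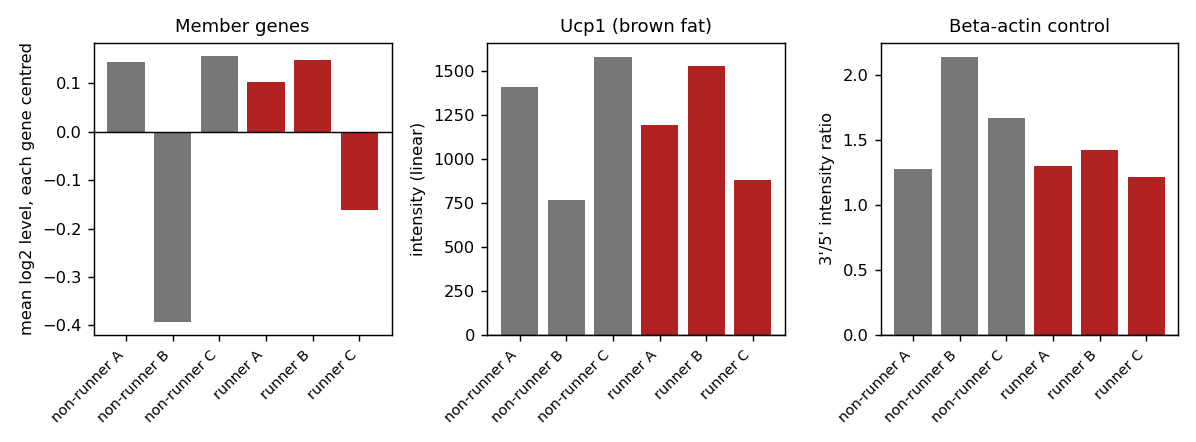
Mean centred log2 level of the 27 members (left), intensity of Ucp1 (middle) and the beta-actin 3'/5' ratio (right) on each array, with non-runners in grey and runners in red. Members and Ucp1 are lowest on non-runner B and next lowest on runner C. The beta-actin ratio is highest on non-runner B (2.14) and lowest on runner C (1.22). The part of brown fat or of the ratio in the members' levels was not tested.

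How far non-runner B fell below its group differed between genes and between probe sets of 1 gene. By the brightest probe sets its median share of the mean of non-runners A and C was 74.3% for the members and 103% for all genes. A share under 50% was found for 6 of the 27 (22.2%), against 3.66% of all genes. Among the 42 tested probe sets the share ran from 12.8% to 162%. Cpt1b gave 31.1% in its brightest probe set and 73.4% in the other, and Pdk2 98.9% and 60.4%. Of 11 members with several tested probe sets, 7 had log2 differences of both signs, namely Acsl1, Acsl4, Cpt1b, Decr1, Eci1, Etfa and Hadha. Some of these differences lay near 0, as in Acsl4 (0.09 and -0.01). Without non-runner B, 2 members had both signs, Etfa and Hadha. The share over all genes with several tested probe sets was not counted, so both counts lack a background. With the beta-actin ratio as a covariate, 17 of the 27 were lower in runners with a median of -0.11, and limma called 0. The share and median over all genes were not counted in that fit, so these values have no background. The ratio itself differs between the groups' arrays, and its part in the members' levels was not tested.

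**Figure D5:**
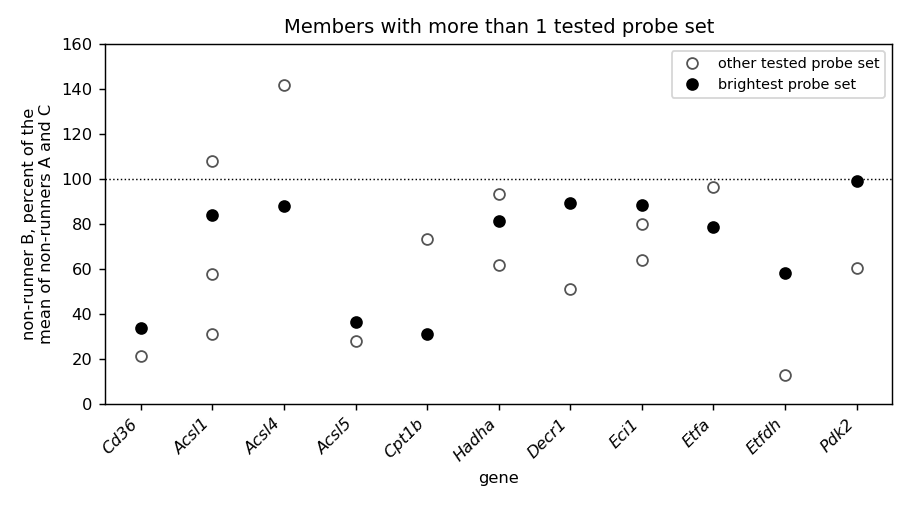
Intensity on non-runner B as a percent of the mean of non-runners A and C, for each tested probe set of the 11 members that have more than 1 (filled, brightest; open, others). The values differ between probe sets of the same gene, as in 12.8% and 57.9% for Etfdh and 31.1% and 73.4% for Cpt1b.

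Other genes of fatty acid handling came from lists that hold no member. Of 11 tested genes of uptake, transport and binding, 7 were higher and 4 lower in runners, with a median log2 difference of 0.16, or -0.0064 without non-runner B. Fabp5, a binding protein of skin, fat and endothelium, measured 144, 110 and 161 in non-runners and 219, 218 and 228 in runners (0.68 ± 0.17 SE, limma adjusted p = 0.381). Fabp4, that of fat cells and also among the adipocyte markers above, measured 520, 404 and 532.5 and then 754, 646 and 628 (0.51 ± 0.16). Dbi, which binds acyl-CoA, measured 326, 207 and 322 and then 424, 463 and 366 (0.56 ± 0.21, or 0.34 without non-runner B). In these 3, all runners were above all non-runners. Lpl, the lipase that frees fatty acids from lipoproteins, had all runners below, at 839, 750 and 868 and then 609, 594 and 671 (-0.38 ± 0.15, limma adjusted p = 0.581). Limma called 0 of the 11, with 3 higher and 1 lower at an unadjusted p under 0.05, against 2.93% and 4.44% of all genes. All runners were higher in 6.15% of all genes and lower in 8.13%.

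Of 11 tested peroxisomal genes outside the members, 5 were higher and 6 lower, with a median of -0.04 and -0.03 without non-runner B. Pex5, the import receptor of peroxisomes, measured 73.7, 70.1 and 55.8 in non-runners and 54.2, 53.8 and 53.0 in runners (-0.31 ± 0.15 SE, limma adjusted p = 0.649). Pex2 and Pex11a, both of peroxisome assembly, differed by -0.27 ± 0.18 and -0.10 ± 0.19. Amacr, a racemase of branched chains, lay below the control level. Of the ketone body genes only Acat1, a mitochondrial thiolase, was tested, at 291 ± 62.4 and 340.2 ± 25.4 (SD, n = 3).

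Among 16 tested regulators other than the members, 10 were higher and 6 lower, with a median of 0.03, or -0.10 without non-runner B. Ppard, the PPAR form common in muscle and vessel, measured 151, 135 and 113 in non-runners and 96.2, 102 and 105 in runners, with all runners lower (-0.38 ± 0.16 SE, limma adjusted p = 0.586). Pdk1, another pyruvate dehydrogenase kinase, measured 46.0, 48.3 and 50.5 and then 69.2, 61.2 and 68.3, with all runners higher (0.41 ± 0.15, limma adjusted p = 0.581). Nr2f1, an orphan nuclear receptor, lay below the control level on all arrays. Acaca, which makes malonyl-CoA, the inhibitor of Cpt1, measured 40.9, 16.3 and 64.3 and then 52.0, 67.6 and 70.1, and its groups overlapped. Limma called 0 genes of the peroxisomal, ketone body and regulator lists. At an unadjusted p under 0.05, 1 regulator was higher and 2 were lower, against 2.93% and 4.44% of all genes. No peroxisomal or ketone body gene passed.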

How the data were processed

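The deposited values are intensities per probe set on a linear scale, 1 column per array; the software and scaling that made them are not given in the sources used here. Of 8799 probe sets, 59 are controls, and the others have 1 symbol (7006), several (308) or none (1426) in the platform annotation. All 32 member symbols matched GRCr8 by gene identifier. Members, lists and tests were chosen with earlier results of these data known. Intensities in the text are as deposited. For tests, log2(intensity + 2.4) was quantile normalized without controls (2.4 is the 10th percentile of the values above 0), since array medians (28.5 to 32.2) differed by over 10%, and the dimmest 40% were left out. Fold changes on this scale understate those of dim genes. Limma 3.58.1 in R 4.3.3 (lmFit, eBayes, two-sided) compared all 6 arrays over 5244 probe sets, with no covariate. A gene is given by its brightest tested probe set, and overlap of groups is judged on intensities. Named were all members and, of each other list, up to 4 genes with the smallest p, besides Ucp1, Acta2, Fabp4 and Adipoq (which had no tested probe set). The fit was tested on simulated data. Figures were drawn with matplotlib 3.10.9.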

Additional observations from a re-analysis of the deposited data

How the results depend on the processing

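The counts of 0 called member probe sets held under every alternative run, with unadjusted counts of 0 to 5. Over the whole table limma called 0 in each alternative with 6 arrays, and 0 to 4 as arrays were left out (4 without non-runner C, 2 without non-runner A). The members' median, reported as 0.07, ran from -0.13 (without non-runner B) to 0.14 (without runner C), so its sign was not stable. The score's spread within groups was 0.25, but non-runner B widened it, at -0.39 against 0.15 and 0.16 on non-runners A and C. That spread is between arrays and is not the error of the median, so it does not measure these shifts. Chip letters shared by the groups did not pair the arrays, with same-letter correlations of -0.09 to -0.04; the replicate block called 0 probe sets, with 359 in place of 424 at an unadjusted p under 0.05. Of 430 single-gene differences under alternatives, 403 kept their sign and 27 did not, and 14 genes had any sign change. None of those 27 differences was called. The other filters, the eBayes options and the replicate block could not alter a difference. Their values are among the 403 by construction, so that count says little of stability. With the beta-actin covariate, Hadhb turned to -0.063, Cpt1b to -0.51, Etfdh to -0.17, Cpt1a to 0.26, Acads to -0.0078, Pdk4 to -0.11 and Cd36 to -0.20. With the mean of probe sets, Etfa turned to -0.023 and Cpt1b to -0.0018. As arrays were left out, the range was -0.13 to 0.032 for Acaa2, -0.18 to 0.12 for Acadvl, -0.052 to 0.27 for Hadhb, -0.43 to 0.46 for Cpt1b, -0.0016 to 0.28 for Cpt2, -0.20 to 0.24 for Etfdh, -0.13 to 0.21 for Cpt1a, -0.064 to 0.64 for Pdk4, -0.18 to 0.59 for Cd36, -0.13 to 0.052 for Hadha, -0.015 to 0.21 for Acsl3 and -0.092 to 0.22 for Acsl4. The cause was not tested. Signal limits the dim members: between 55.4% and 57.5% of an array's probe sets were under the control level.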

Other observations

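Pck1, phosphoenolpyruvate carboxykinase, which in fat cells makes the glycerol backbone that puts fatty acids back into triglyceride, was among the adipocyte markers listed. It measured 700, 246 and 777 on non-runners A, B and C and 217, 304 and 247 on runners A, B and C. Non-runner B lay among the runners, and the other 2 non-runners lay above all of them. The log2 difference was -1.0 ± 0.40 (SE, limma adjusted p = 0.585), and -1.52 without non-runner B (limma adjusted p = 0.15).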
